A study of Homo sapiens with 6 samples.

Results

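Cells that carried a GFP lentivirus were compared, across all expressed genes, with untreated cells of the same line. The cells are Cal27, an established line that was derived from a human tongue squamous cell carcinoma. The GFP group was transduced with lentiviral particles holding the GFP control vector, in the presence of 8 µg/ml polybrene, and harvested 48 h later. The untreated group is labelled wild type, and the labels give it neither polybrene nor a harvest time. Polybrene, the virus and the time in culture therefore cannot be told apart here. Each group had 2 biological replicates, so the comparison used 4 of the study's 6 libraries. The other 2 came from Cal27 cells transduced in the same way with a lentivirus carrying cornulin (CRNN), and their levels are set beside some genes as a description. All 6 libraries carry the same batch label, and no label says that same-numbered replicates shared a culture or day. Of 57820 genes in the count table, 15846 had enough reads to be tested. The count table has no row for a vector sequence, and GFP transcripts were therefore not measured.

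A lentiviral particle delivers an RNA genome that is copied into DNA in the cell and inserted into a chromosome. Polybrene is a polycation that eases contact between virus and cell. Epithelial cells sense foreign RNA through RIG-I-like receptors and foreign DNA through the cGAS-STING route. Both routes lead to interferon, which acts through JAK kinases and a transcription factor complex on a large set of interferon-stimulated genes. Many of these genes carry a response element in the promoter, built from paired GAAA repeats. A control vector is used so that such effects of delivery can be separated from those of the cargo.

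No gene differed between the GFP and untreated cells at an adjusted p under 0.05 by edgeR's quasi-likelihood test, so 0.00% of the tested genes were called in either direction. The smallest adjusted p was 0.424. At an unadjusted p under 0.05, edgeR gave 765 genes (4.83%), with 440 higher in the GFP cells (2.78%) and 325 lower (2.05%). DESeq2 called 15 genes on the same counts, 8 higher and 7 lower. In simulated counts for this comparison over 15846 genes, the procedure recovered 3.6% of genes changed 2-fold and 66.4% of those changed 4-fold. It recovered 97.6% at 8-fold and 99.6% at 16-fold. The simulated spread followed a trend with level fitted to these counts, and the changed genes had a mean log2 CPM of at least 1. No library that stood apart and no GC or length trend was simulated, so these percentages may not hold for the real libraries. With 2 libraries against 2, an exact permutation test of a single gene cannot go below p = 0.333. The results below are therefore given as levels in each library and as counts of genes without overlap. Such a gene is higher, or lower, in both GFP libraries than in both untreated libraries. The gap is the log2 difference between the nearest GFP and untreated library, so 1 library that stands apart cannot set it.

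Without overlap, 2602 genes (16.4%) were higher and 2429 (15.3%) were lower in the GFP cells, together 5031 (31.7%). Where the 4 libraries of a gene fall in random order, a share of 0.333 is expected without overlap in either direction. The counts alone therefore do not measure a response. With upper-quartile scaling in place of TMM, 2980 were higher and 1846 lower. A gap of at least 1.5-fold was seen for 511 higher genes (3.22%) and 84 lower genes (0.530%). At least 2-fold apart were 147 higher genes (0.928%) and 19 lower genes (0.120%). Library totals were between 11817105 counts in GFP replicate 2 and 28041227 in untreated replicate 1, so 3 counts were worth 0.114 to 0.239 CPM, the count scaled by library size. Mitochondrial transcripts took 29.3% and 28.9% of the counts in the GFP libraries, and 22.5% and 25.8% in the untreated ones. Untreated replicate 1 stood apart from the rest. Among 11719 genes whose mean log2 CPM reached 1, it was over 4-fold higher than each of the other 3 libraries for 121 and over 4-fold lower for 52.

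Part of the difference between libraries followed the base composition and length of the transcripts, and the GFP libraries did so in opposite directions. Genes were divided into 10 equal bins. In the bin with the lowest GC content (median 36.99%), GFP replicate 1 was below the untreated libraries by medians of -0.38 and -0.42 on the log2 scale. In the bin with the highest GC content (median 64.26%) it was above them by 0.36 and 0.38. GFP replicate 2 went from 0.13 and 0.07 in the lowest bin to -0.14 and -0.12 in the highest. In the bin of the longest transcripts (median 9001 bases) GFP replicate 1 stood at -0.06 and -0.07, and GFP replicate 2 at 0.23 and 0.25. After each library's GC and length trends were removed, edgeR again called 0 genes (0.00%), and at an unadjusted p under 0.05 it gave 398 higher (2.58%) and 273 lower (1.77%). Then 2386 genes (15.5%) were higher without overlap and 3264 (21.2%) lower, of which 130 (0.843%) and 26 (0.169%) were at least 2-fold apart. Without overlap both before and after this correction were 1940 higher genes (12.6%) and 1906 lower genes (12.4%). Of these, 1184 higher and 1713 lower genes had a symbol and a mean of at least 20 counts, and those with the largest gap each way are described below.

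**Figure D1:**
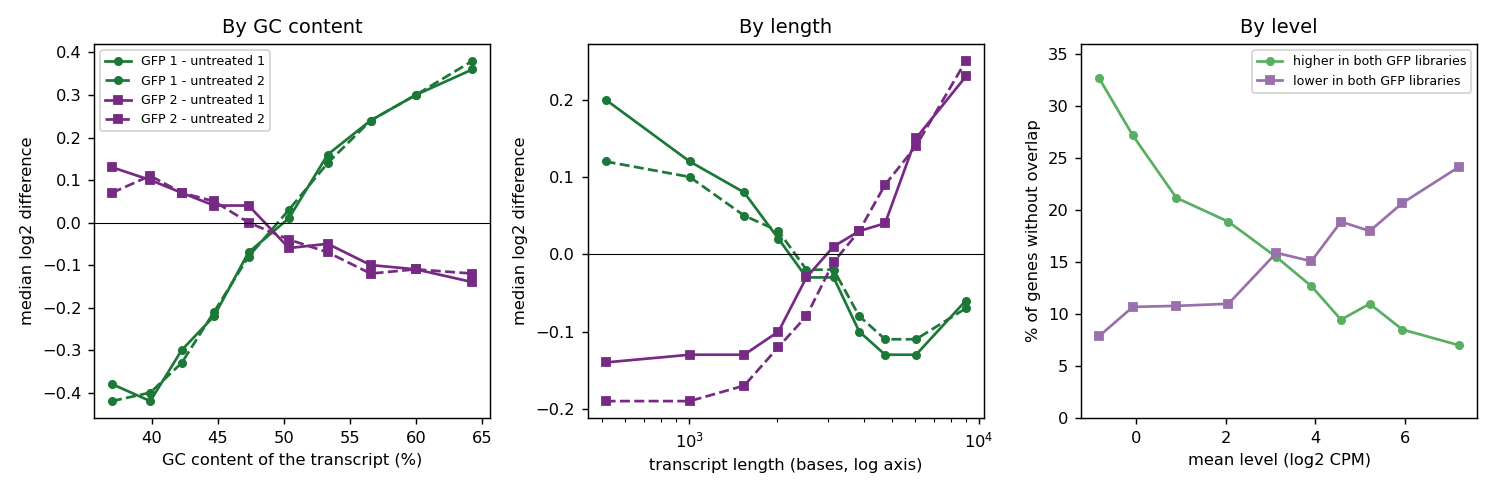
The left and middle panels plot the median log2 difference of each GFP and untreated library pair over 10 bins of genes by transcript GC content (%) and by transcript length (bases, log axis). The right panel plots the percentage of genes without overlap over 10 bins of mean level. The GFP replicate 1 pairs run from -0.42 to 0.38 along GC content while the GFP replicate 2 pairs run the opposite way, and the share of higher genes goes from 32.7% at the lowest level to 7% at the highest.

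Among named genes, the smallest unadjusted p was that of IFI27, a small interferon-inducible protein that is widely used as a marker of interferon action. IFI27 (ENSG00000165949.8; GRCh38 chromosome 14, 94104836 to 94116695, plus strand) was at 11.6 and 8.54 CPM in GFP replicates 1 and 2. In untreated replicates 1 and 2 it was at 99.7 and 34.8 CPM. Both GFP libraries were thus below both untreated libraries, with a gap of -1.57. The group levels were 10.1 CPM ± 2.18 (SD, n = 2) and 67.2 ± 45.9 (SD, n = 2). The log2 fold change was -2.73 (SE 0.51), with an adjusted p of 0.900 in edgeR and of 0.00110 in DESeq2. It was -1.80 without untreated replicate 1. In the cells with the CRNN lentivirus, IFI27 was at 331 and 404 CPM, above all 4 of these libraries. IFI6, another small interferon-inducible protein, was at 15.6 and 20 CPM in the GFP cells and at 90.2 and 35.3 CPM in the untreated cells. ISG15, the ubiquitin-like protein that is attached to other proteins after interferon, was at 92.8 and 77.7 CPM against 377 and 162 CPM. In bulk RNA, fewer cells with a transcript and less of it per cell cannot be told apart. All 3 genes had no overlap, before and after the correction for GC content and length.

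The promoters of these 3 genes are shown because they carry the paired GAAA repeats through which the interferon-activated complex acts. Each is the 250 bases before the RefSeq start site (GRCh38.p14), read 5′ to 3′ on the gene's strand. They lie at chr14:94110486-94110735 on the plus strand for IFI27, chr1:27672193-27672442 on the minus strand for IFI6 and chr1:1013247-1013496 on the plus strand for ISG15. Capitals mark matches to GAAANNGAAA on either strand.
IFI27: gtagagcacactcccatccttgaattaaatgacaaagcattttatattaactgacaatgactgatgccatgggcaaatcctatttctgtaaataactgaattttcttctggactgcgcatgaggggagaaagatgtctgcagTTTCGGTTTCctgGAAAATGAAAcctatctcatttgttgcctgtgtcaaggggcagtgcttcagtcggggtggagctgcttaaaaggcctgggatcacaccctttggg
IFI6: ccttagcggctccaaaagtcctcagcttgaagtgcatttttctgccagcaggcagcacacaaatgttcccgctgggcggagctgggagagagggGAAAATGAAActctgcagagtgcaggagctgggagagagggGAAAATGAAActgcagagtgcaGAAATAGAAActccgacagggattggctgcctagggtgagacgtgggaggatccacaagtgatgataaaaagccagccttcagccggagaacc
ISG15: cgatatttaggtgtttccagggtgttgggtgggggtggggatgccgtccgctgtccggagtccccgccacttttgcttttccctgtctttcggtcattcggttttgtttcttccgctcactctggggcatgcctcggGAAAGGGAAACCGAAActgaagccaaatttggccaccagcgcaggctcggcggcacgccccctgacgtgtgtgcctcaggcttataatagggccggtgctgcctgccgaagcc
The IFI27 promoter holds 2 matches, 1 on each strand, IFI6 holds 3, and ISG15 holds 2 that overlap. Over promoters of 300 bases (250 before and 50 after the start), the motif was found in 26 of the 38 interferon-stimulated genes with an entry (68.4%). It was found in 290 of 10843 tested genes with an entry (2.67%) and in 996 of 27305 promoters in all (3.65%). Among the interferon-stimulated genes that were lower without overlap, 15 of 24 had a match (62.5%), and among those that overlapped, 11 of 14 (78.6%).

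The interferon-stimulated genes as a list were lower in the GFP cells. Of 47 tested members, 27 (57.4%) were lower without overlap and 0 were higher, beside 15.3% and 16.4% of all tested genes. All 47 had a log2 fold change below 0, with a median of -1.14 beside -0.01 for all tested genes. None was called by edgeR, and 24 were lower at an unadjusted p under 0.05, beside 2.05% of all tested genes. After the GC and length correction the median was -1.11, and 27 members were again lower, beside 21.2% of all genes in the corrected comparison. The size depended on the libraries compared. The members' median was -2.07 for GFP replicate 1 against untreated replicate 1 and -0.80 against untreated replicate 2. For GFP replicate 2 it was -1.29 against untreated replicate 1 and -0.08 against untreated replicate 2. Without untreated replicate 1, the median was -0.36 and 28 members were lower, beside 27.2% of all tested genes under the same omission. Leaving out GFP replicate 1 gave a median of -0.86, and leaving out GFP replicate 2 gave -1.77. The members' mean log2 level, relative to the mean of the GFP and untreated libraries, was -1.09 and -0.13 in the GFP libraries. It was 1.23 and -0.01 in the untreated libraries, and 1.17 and 1.28 in the CRNN libraries, which were also transduced.

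**Figure D2:**
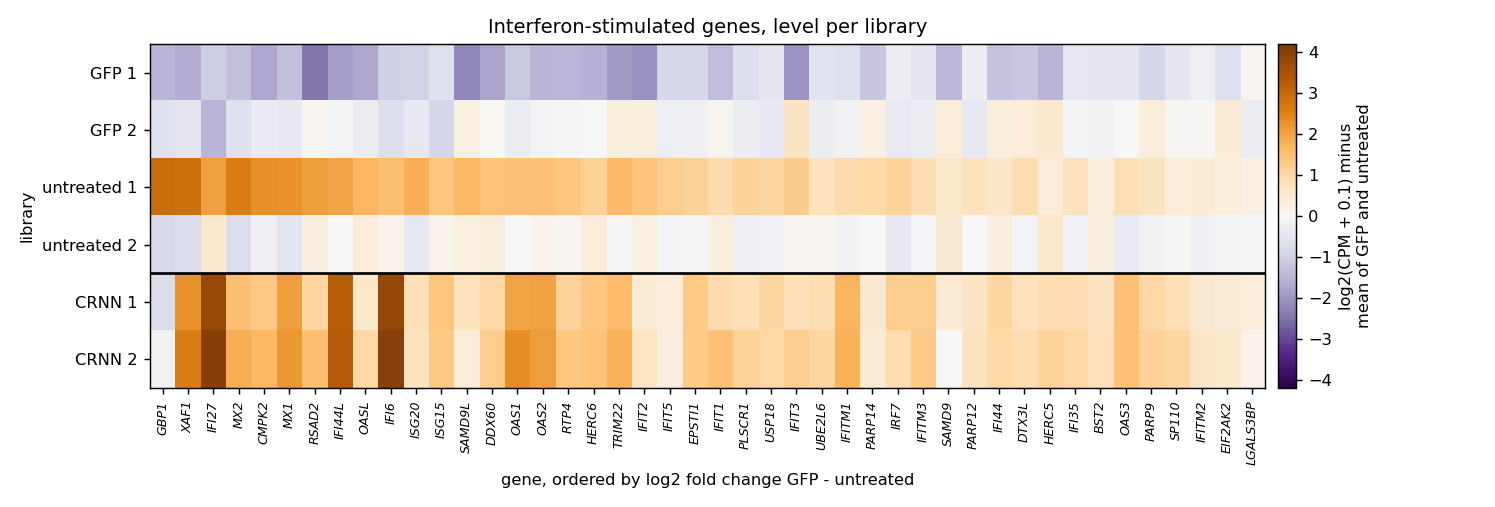
Each column is 1 of 44 interferon-stimulated genes, of 47 tested, and each row 1 library. Colour gives log2(CPM + 0.1) minus the gene's mean over the GFP and untreated libraries. GFP replicate 1 is low across the list and untreated replicate 1 high, while GFP replicate 2 and untreated replicate 2 lie close together. The CRNN libraries, below the line, are highest for members such as IFI27 and IFI6.

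Within the list, OASL, a 2′-5′-oligoadenylate synthetase-like protein, was at 24.1 and 64.4 CPM in the GFP cells and at 257 and 104 CPM in the untreated cells, with a gap of -0.68. For GBP1, a guanylate-binding GTPase, the groups overlapped. It was at 23.4 and 43.3 CPM in the GFP cells against 502 and 36.4 CPM in the untreated cells. CMPK2, a mitochondrial nucleotide kinase, was at 2.66 and 7.02 CPM against 44 and 7.65 CPM, so that GFP replicate 2 and untreated replicate 2 were nearly level. IFI27, IFI6, ISG15 and OASL led by gap, which by its definition means that both untreated libraries lay clearly above both GFP libraries.

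Lists of receptors that sense viral nucleic acid and of factors that restrict retroviruses had medians nearer to 0. Of 16 tested sensors and adaptors, 2 (12.5%) were lower and 1 (6.25%) higher without overlap, with a median of -0.23. Both shares were below those of all tested genes, 15.3% and 16.4%. DHX58, the RIG-I-like regulator LGP2, was at 2.40 and 4.47 CPM in the GFP cells and at 9.38 and 6.37 CPM in the untreated cells. STING1, the adaptor of DNA sensing, was the other lower member, with a gap of -0.23. The higher member was MAVS, the adaptor of the RIG-I-like receptors, at 69.2 and 69.4 CPM against 52.7 and 57.2 CPM, and its libraries overlapped after the GC and length correction. RIGI itself, the receptor for short viral RNA, was at 14.8 and 52.0 CPM against 141 and 44.9 CPM, with overlap. Of 21 retroviral restriction factors, 3 (14.3%) were higher and 2 (9.52%) lower, also below the shares of all tested genes, with a median of 0.01. BST2, which tethers budding particles to the cell surface, was at 86.0 and 107 CPM in the GFP cells against 146 CPM in each untreated library. APOBEC3F, a cytidine deaminase that edits retroviral DNA, was at 6.56 and 6.94 CPM against 4.54 and 4.32 CPM. Without GFP replicate 2 the medians were -0.83 for the sensors and -0.49 for the restriction factors.

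Genes of antigen presentation on MHC class I were also among the lower ones. Of 18 tested, 9 (50%) were lower without overlap and 0 higher, beside 15.3% and 16.4% of all tested genes, with a median of -0.53. The median for GFP replicate 2 against untreated replicate 2 was -0.16, and without untreated replicate 1 it was -0.20 for the list. PSMB8, a catalytic subunit of the immunoproteasome, was at 43.4 and 46.6 CPM in the GFP cells and at 77.1 and 56.5 CPM in the untreated cells. PSME2, a subunit of the proteasome activator, was at 96.2 and 107 CPM against 179 and 129 CPM. B2M, the light chain of all class I molecules, was at 348 and 458 CPM against 831 and 507 CPM. HLA-B, a class I heavy chain, was at 23.2 and 13.7 CPM against 63.8 and 15 CPM and overlapped. Reads of HLA genes may be split between near-identical copies.

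MT1X and SLC30A1, both chosen for the size of their gaps, were below both untreated libraries in both GFP libraries, and no list of zinc genes as such was counted. Zinc induces metallothioneins and the exporter SLC30A1 through the transcription factor MTF1, which binds short metal response elements. MT1X, a metallothionein that binds zinc and copper (ENSG00000187193.8; GRCh38 chromosome 16, 56682470 to 56684196, plus strand), was at 5.05 and 9.34 CPM in the GFP cells. In the untreated cells it was at 22.9 and 22.3 CPM, so that the untreated replicates were close and the gap was -1.25. Its log2 fold change was -1.66 (SE 0.42; adjusted p = 0.900, edgeR). SLC30A1, the zinc exporter of the plasma membrane (ENSG00000170385.9; GRCh38 chromosome 1, 211571568 to 211579161, minus strand), was at 3.07 and 9.34 CPM in the GFP cells. It was at 169 CPM in untreated replicate 1 and 19.5 CPM in untreated replicate 2, with a gap of -1.06. In the CRNN libraries MT1X was at 36.6 and 39.9 CPM and SLC30A1 at 19.7 and 18.9 CPM, above both untreated libraries for MT1X and close to untreated replicate 2 for SLC30A1.

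The promoters of MT1X and SLC30A1 are shown for the metal response element core that they share. They are the 250 bases before the RefSeq start (GRCh38.p14), at chr16:56682220-56682469 on the plus strand and chr1:211579162-211579411 on the minus strand. Capitals mark TGCACNC or TGCGCNC on either strand.
MT1X: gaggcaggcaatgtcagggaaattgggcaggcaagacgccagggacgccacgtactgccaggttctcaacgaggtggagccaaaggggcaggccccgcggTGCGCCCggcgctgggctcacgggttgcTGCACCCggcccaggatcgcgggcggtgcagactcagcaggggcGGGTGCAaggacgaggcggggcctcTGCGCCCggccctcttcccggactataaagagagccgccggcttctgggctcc
SLC30A1: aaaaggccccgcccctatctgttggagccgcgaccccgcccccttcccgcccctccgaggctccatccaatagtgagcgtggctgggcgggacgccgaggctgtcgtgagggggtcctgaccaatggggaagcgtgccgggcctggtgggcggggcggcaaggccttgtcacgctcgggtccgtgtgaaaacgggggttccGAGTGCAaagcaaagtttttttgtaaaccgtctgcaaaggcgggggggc
MT1X holds 4 matches in this stretch and SLC30A1 holds 1. The core is short and common: 38.8% of the tested genes' promoters of 300 bases held it, and 29.3% of all promoters. Both metallothionein genes with a promoter entry, MT1X and MT2A, had it.

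Other metallothioneins went the same way with smaller gaps. MT1E was at 32.6 and 109 CPM in the GFP cells and at 137 and 204 CPM in the untreated cells. MT2A, the most widely expressed member, was at 150 and 169 CPM against 212 and 287 CPM, and MT1M was at 0.573 and 1.20 CPM against 2.93 and 1.52 CPM. Metallothioneins have near-identical copies, so the division of reads among them is uncertain. The whole list of 24 metallothioneins and targets of NRF2, the regulator of the antioxidant response, had 9 members lower without overlap (37.5%) and 1 higher. Of all tested genes, 15.3% were lower and 16.4% higher. The list's median was -0.27. TXNRD1, the thioredoxin reductase, was at 239 and 235 CPM against 429 and 307 CPM. In the CRNN cells it was at 225 and 245 CPM. Without GFP replicate 2 the list's median was -0.55.

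The largest gap among the lower genes was that of GCNT3, a Golgi enzyme that builds branched mucin sugars. It was at 0.938 and 0.958 CPM in the GFP cells and at 14.7 and 3.48 CPM in the untreated cells, a gap of -1.76 and a log2 fold change of -3.26 (SE 0.69; adjusted p = 0.900, edgeR), or -1.89 without untreated replicate 1. Untreated replicate 1 was again the highest library. PIGR, the receptor that carries IgA across epithelia, had 1 and 3 counts in the GFP libraries and 166 and 20 in the untreated libraries. CCL2, a chemokine that attracts monocytes, was at 2.40 and 5.91 CPM against 82.8 and 13.8 CPM, with 11.3 and 15.4 CPM in the CRNN cells.

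Peptidylarginine deiminases, which convert arginine to citrulline in proteins such as filaggrin, supplied 2 of the 15 lower genes. PADI3 was at 7.14 and 9.66 CPM in the GFP cells and at 24.3 and 23.1 CPM in the untreated cells, with a gap of -1.25. Its untreated replicates were close together, and the CRNN libraries, at 7.25 and 9.77 CPM, were at the level of the GFP libraries. PADI2 was at 1.56 and 1.84 CPM against 23.4 and 4.77 CPM, with 3.28 and 1.92 CPM in the CRNN cells. Both genes lie in the PADI cluster on chromosome 1, PADI2 at 17066761 to 17119451 on the minus strand and PADI3 at 17249098 to 17284233 on the plus strand (GRCh38).

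The remaining lower genes had gaps between -1.35 and -0.90 and low levels. SLC19A3, a thiamine transporter, was at 1.25 and 1.12 CPM in the GFP cells against 2.74 and 2.56 CPM. NUPR1, a stress-responsive nuclear protein, was at 0.208 and 1.12 CPM against 3.05 and 2.28 CPM. RGS16, which shortens signalling by G proteins, was at 1.88 and 2.55 CPM against 8.88 and 4.85 CPM. Replicates were close within both groups for SLC19A3, and untreated replicate 1 was the highest library for NUPR1 and RGS16. LYPD6B, a Ly6-domain protein, was at 1.82 and 2.00 CPM against 3.93 and 4.36 CPM. The pseudogene TMSB4XP8, at 5.99 and 5.59 CPM against 15.5 and 11.9 CPM, can take reads from its parent gene. The others were the noncoding LINC02518 and KLRK1-AS1. KLRK1-AS1 is antisense to another gene and the strand setting of the counting is not given in the sources used here, so reads of the pair may be mixed. The gaps on either side of the limit were -0.90 for RGS16 and -0.89 for the next gene, ZNF812P.

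**Figure D3:**
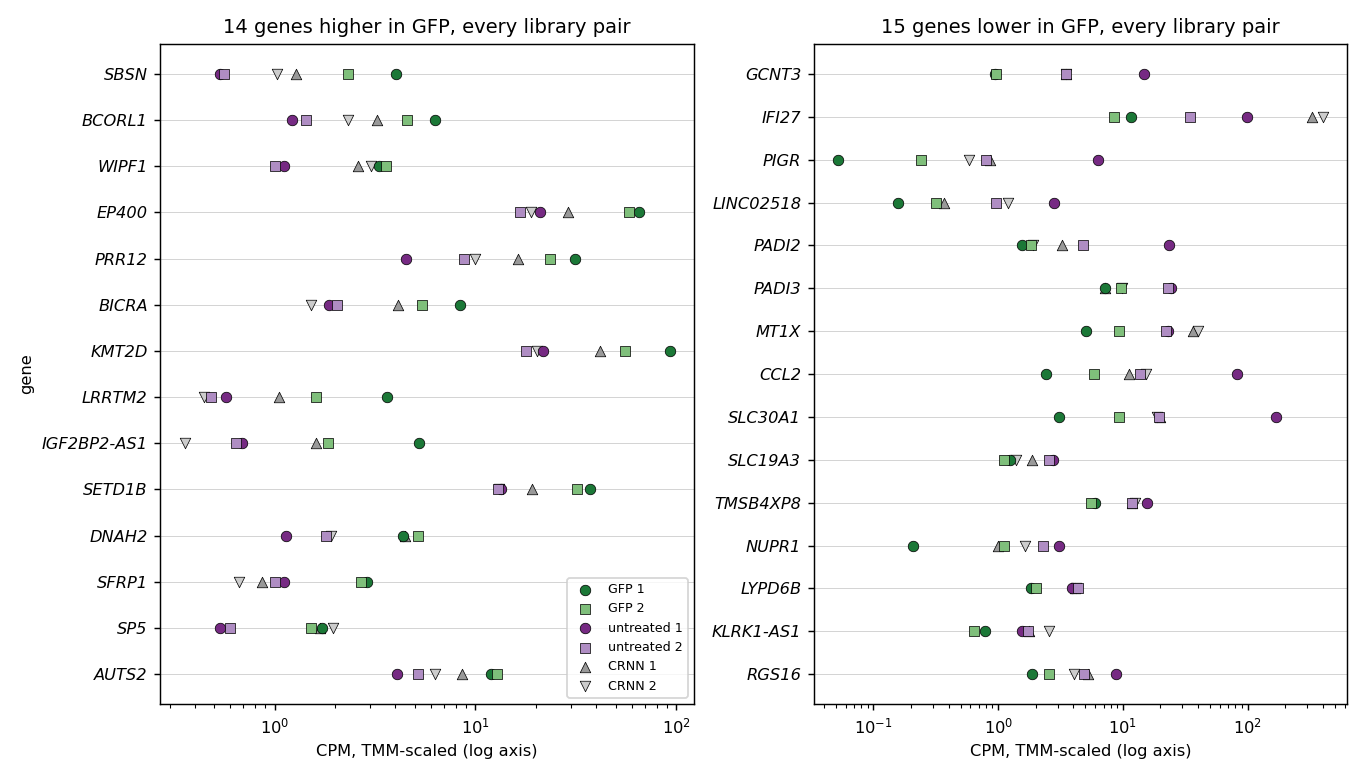
Each row is 1 gene and each point 1 library, in TMM-scaled CPM on a log axis, for 14 of the 15 higher genes and the 15 lower genes with the largest gap. Green GFP points and purple untreated points are apart in every row, by construction. Untreated replicates lie close together for higher genes such as SETD1B (13.4 and 12.9 CPM), while untreated replicate 1 lies far above replicate 2 for several lower genes such as SLC30A1 (169 and 19.5 CPM).

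Among the 15 higher genes with the largest gap were several large regulators of chromatin. EP400, the motor subunit of a histone-exchange complex (ENSG00000183495.9; GRCh38 chromosome 12, 131949942 to 132080460, plus strand), was at 65.5 and 57.9 CPM in the GFP cells and at 20.9 and 16.7 CPM in the untreated cells. Replicates were close within both groups, and the gap was 1.46. The log2 fold change was 1.71 (SE 0.36), with an adjusted p of 0.900 in edgeR and of 0.0292 in DESeq2. KMT2D, a histone H3 lysine 4 methyltransferase of enhancers, was at 92.8 and 55.5 CPM against 21.8 and 17.9 CPM. SETD1B, a methyltransferase of the same residue, was at 37.2 and 32.1 CPM against 13.4 and 12.9 CPM. BCORL1, a transcriptional corepressor, was at 6.30 and 4.55 CPM against 1.22 and 1.44 CPM. BICRA, a subunit of a BAF chromatin remodeller, was at 8.39 and 5.43 CPM against 1.87 and 2.04 CPM. PRR12, a large proline-rich nuclear protein, was at 31.5 and 23.5 CPM against 4.50 and 8.73 CPM, and AUTS2, a partner of Polycomb complexes, at 12 and 12.8 CPM against 4.08 and 5.17 CPM. The transcripts of these genes had 5687 to 20635 bases and 54.56% to 68.40% GC, beside medians of 2820 and 48.76% for all tested genes. Their gaps were smaller after the GC and length correction. The corrected log2 fold change was 1.41 for EP400 (gap 1.25) and 1.41 for KMT2D (gap 1.03, from 1.35). In the CRNN cells EP400 was at 28.9 and 18.9 CPM, and KMT2D was at 41.5 and 20.3 CPM. CRNN replicate 1 thus lay between the groups, and CRNN replicate 2 near the untreated libraries.

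As a list, which was chosen with earlier results of these data known, large chromatin coactivators and corepressors were higher in the GFP cells. Of 26 tested, 16 (61.5%) were higher without overlap and 0 lower, beside 16.4% and 15.3% of all tested genes. Their median log2 fold change was 0.71. At an unadjusted p under 0.05, 11 were higher, beside 2.78% of all tested genes, and edgeR called none. The median was alike in all 4 library pairs, at 0.65, 0.84, 0.70 and 0.65. CREBBP, a histone acetyltransferase, was at 67.5 and 60.9 CPM against 29.5 and 24.9 CPM. TRRAP, a scaffold of acetyltransferase complexes, was at 97.4 and 103 CPM against 46.7 and 44.5 CPM. ARID1A, the DNA-binding subunit of the canonical BAF remodeller, was at 73.5 and 82.6 CPM against 33.6 and 37.7 CPM. The members' median transcript length was 9151 bases, beside 2820 for all tested genes. In the bin of the longest transcripts, 23.3% of genes were higher without overlap and 8.82% lower. After the GC and length correction the median was 0.49, with 14 higher and 2 lower. Of all genes in the corrected comparison, 15.5% were higher and 21.2% lower. The part of transcript length in the difference was not tested beyond that correction.

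Several higher genes belong to squamous differentiation, but the list as a whole was mixed. SBSN, the epidermal protein suprabasin, had the largest gap among the higher genes, 1.88, at 4.01 and 2.31 CPM in the GFP cells and 0.534 and 0.561 CPM in the untreated cells. SPRR2G, a cornified envelope precursor, had 49 and 13 counts in the GFP libraries and 3 and 0 in the untreated libraries. KRT1, the keratin of suprabasal epidermis, was at 4.64 and 9.90 CPM against 1.52 and 2.64 CPM. EVPL, which anchors the envelope to desmosomes, was at 49.1 and 61.4 CPM against 26.5 and 31.0 CPM. KRT13, the keratin of non-cornified oral mucosa, was lower, at 52.3 and 43.3 CPM against 78.0 and 184 CPM. Of 35 tested members, 9 were higher (25.7%) and 4 lower (11.4%), beside 16.4% and 15.3% of all tested genes, with a median of 0.28. The median was -0.32 without GFP replicate 1 and 0.48 without untreated replicate 1. SPRR2 genes have near-identical copies, so their reads may be shared. Among basal and stress keratinocyte genes, 3 of 23 (13.0%) were higher and 1 (4.35%) lower, below the shares of all tested genes. ITGB4, the integrin of hemidesmosomes, was at 551 and 517 CPM against 231 and 255 CPM, and CD44, the hyaluronan receptor, at 958 and 977 CPM against 647 and 638 CPM.

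The other higher genes had low levels and varied roles. WIPF1, a partner of the actin regulator WASP, was at 3.33 and 3.59 CPM in the GFP cells against 1.11 and 1.00 CPM. SFRP1, a secreted Wnt antagonist, was at 2.87 and 2.71 CPM against 1.11 and 1.00 CPM, and SP5, a transcription factor induced by Wnt signalling, at 1.72 and 1.52 CPM against 0.534 and 0.601 CPM. Replicates were close within both groups for these 3 genes. DNAH2, an axonemal dynein chain, was at 4.38 and 5.19 CPM against 1.14 and 1.80 CPM. LRRTM2, a synaptic adhesion protein, was at 3.65 and 1.60 CPM against 0.572 and 0.481 CPM. IGF2BP2-AS1 was at 5.21 and 1.84 CPM against 0.686 and 0.641 CPM, and as an antisense gene it may take reads of IGF2BP2. The next gene beyond the limit was ERVFRD-1, with a gap of 1.20 like that of AUTS2. The smallest p of all belonged to ENSG00000237683.5, an identifier without a name in GENCODE release 44. It was at 9.27 and 7.66 CPM in the GFP cells and 0.877 and 0.761 CPM in the untreated cells, with a log2 fold change of 3.36 (SE 0.48; adjusted p = 0.424, edgeR). Its GC content and length are not known here, so it was not in the corrected comparison.

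Long noncoding RNAs and weakly expressed genes had a larger share of members that were higher in the GFP cells. Of 1724 tested long noncoding RNAs, 28.5% were higher and 5.92% lower without overlap, beside 13.8% and 16.7% of 12395 protein-coding genes. After the GC and length correction the shares of long noncoding RNAs were 28.4% and 7.19%, beside 12.9% and 23.0% of protein-coding genes. The share also followed the level. In the lowest of 10 bins of all tested genes by mean level, 32.7% were higher and 7.89% lower, and in the highest bin 7% were higher and 24.2% lower. Within the lowest bin, 35.3% of long noncoding RNAs and 29.1% of protein-coding genes were higher, and within the next bin 28.5% and 28.7%. The filter kept a gene that reached its limit in 2 libraries, so a weak gene could pass through 1 group alone. The GFP libraries also had the smallest totals, 19572907 and 11817105 counts, beside 28041227 and 24300844 in the untreated libraries. The part of the filter and of depth in these shares was not tested. NEAT1, the scaffold of nuclear paraspeckles, was at 1854 and 520 CPM in the GFP cells and at 128 and 237 CPM in the untreated cells. MALAT1, a nuclear speckle RNA, was at 3899 and 8787 CPM against 2038 and 2665 CPM. Both were higher without overlap, though the GFP replicates differed from each other more than the untreated ones. Of 25 nuclear and snoRNA-host noncoding RNAs, 3 were higher and 5 lower without overlap. The share higher was below the 16.4% of all tested genes, and the share lower was above their 15.3%. The list's median was -0.22. That median was -0.07 without GFP replicate 2, -0.10 without untreated replicate 1 and -0.45 without GFP replicate 1.

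Messenger RNAs of the mitochondrial genome, nuclear subunits of oxidative phosphorylation and ribosomal proteins were counted as 3 lists. Of 13 mitochondrially encoded messenger RNAs, 9 (69.2%) were higher without overlap and 0 lower, beside 16.4% and 15.3% of all tested genes. Their median was 0.70, and 2 were higher at an unadjusted p under 0.05, beside 2.78% of all tested genes. MT-ND4, a subunit of complex I, was at 648 and 502 CPM against 289 and 352 CPM, and MT-ATP6, a subunit of the ATP synthase, at 459 and 443 CPM against 217 and 316 CPM. Without untreated replicate 1 the list's median was 0.44. The CRNN replicates differed widely for these genes, with MT-ND4 at 372 and 187 CPM. Of 40 nuclear subunits of oxidative phosphorylation, 16 (40%) were lower without overlap and 0 higher, beside the same 15.3% and 16.4%, with a median of -0.22. At an unadjusted p under 0.05, 0 of the 40 subunits and 0 of 63 ribosomal proteins were lower, beside 2.05% of all tested genes. NDUFA1, a small subunit of complex I, was at 30.3 and 30.2 CPM against 42.1 and 44.9 CPM. This list's median was -0.06 without GFP replicate 2, -0.37 without GFP replicate 1 and -0.14 without untreated replicate 2. For GFP replicate 1 against untreated replicate 1 alone it was 0.02.

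Of 63 cytosolic ribosomal proteins, 39 (61.9%) were lower in the GFP cells without overlap and 1 higher, beside 15.3% and 16.4% of all tested genes. In the bin of genes with the highest mean level, 24.2% were lower and 7% higher. The ribosomal list's median was -0.42. RPS6, a protein of the small subunit that is phosphorylated on growth signals, was at 1106 and 1130 CPM in the GFP cells and at 1712 and 1444 CPM in the untreated cells. The higher member was RPL28, named after its values were seen, with a gap of 0.08. After the correction 49 members were lower, beside 21.2% of all genes in the corrected comparison. Without GFP replicate 2 the median was -0.23. These genes have many processed pseudogenes that can share reads.

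Of 30 genes of the unfolded protein and integrated stress response, 9 (30.0%) were lower without overlap and 0 higher. Of all tested genes, 15.3% were lower and 16.4% higher. The list's median was -0.35, and 1 member was lower at an unadjusted p under 0.05 by edgeR, beside 2.05% of all tested genes. ASNS, which makes asparagine, was at 38.7 and 36.9 CPM in the GFP cells and at 69.7 and 68.7 CPM in the untreated cells, with a gap of -0.83. The CRNN libraries were at 34.5 and 38.5 CPM, the level of the GFP libraries. PSAT1, of serine synthesis, was at 133 and 134 CPM against 166 and 192 CPM, with 128 and 155 CPM in the CRNN cells. Without GFP replicate 1 the list's median was -0.16, and without untreated replicate 1 it was -0.15. Heat shock genes had 3 of 13 lower and 1 higher, and p53 targets 2 of 24 higher and 0 lower. Hypoxia and glycolysis genes had 2 of 24 higher and 1 lower. These last shares were below those of all tested genes for p53 targets and for hypoxia and glycolysis.

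Genes of mitosis and of DNA replication were compared as separate lists. Of 34 mitosis genes, 7 (20.6%) were higher in the GFP cells without overlap and 0 lower, with a median of 0.57, beside 16.4% of all tested genes higher. Without untreated replicate 1, 20.6% of the mitosis genes and 26.0% of all tested genes were higher without overlap. The median was 1.26 and 1.69 against untreated replicate 1, and -0.37 and 0.23 against untreated replicate 2. PLK1, a kinase of mitotic entry, was at 190 and 152 CPM against 35.1 CPM in untreated replicate 1 and 106 CPM in untreated replicate 2. The list's median was 0.02 without untreated replicate 1, 0.11 without GFP replicate 2 and 1.39 without untreated replicate 2. Of 35 DNA replication genes, 10 (28.6%) were lower and 3 (8.57%) higher, beside 15.3% and 16.4% of all tested genes. Their median was -0.08, which was -0.23 without untreated replicate 1 and 0.01 without untreated replicate 2. CCNE2, a cyclin of S-phase entry, was at 6.67 and 6.30 CPM against 17.6 and 9.65 CPM. CDC6, which loads the replicative helicase, was at 68.7 and 75.7 CPM against 96.0 and 88.8 CPM.

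Signalling lists had low medians that rested on untreated replicate 1. The median was -0.98 for 20 EGFR ligands and MAPK feedback genes, and 0.50 without that library. For 26 NF-kB targets it was -0.71, and 0.53 without it. For 24 YAP, TGF-beta and matricellular genes it was -0.65 and 0.29, and for 20 AP-1 and immediate early factors -0.57 and 0.40. Left out 1 at a time, the other 3 libraries kept these medians below 0, from -1.96 to -0.32 for the EGFR list and from -1.41 to -0.42 for the NF-kB list. In none of these lists did the share without overlap exceed that of all tested genes in either direction. CXCL8, a neutrophil chemokine, was at 1.09 and 0.239 CPM in the GFP cells and at 53.7 and 0.521 CPM in the untreated cells. TNFAIP3, the feedback inhibitor of NF-kB, was at 15 and 9.02 CPM against 290 and 5.33 CPM. Both had their high value in untreated replicate 1 alone. Of these lists' members, ANKRD1, a YAP target, was lower without overlap, at 0.469 and 0.160 CPM against 57.5 and 0.801 CPM, as was CXCL1, at 0.677 and 0.319 CPM against 15.2 and 1.08 CPM. Outside untreated replicate 1 both genes rested on few counts, since 3 counts in GFP replicate 2 were worth 0.239 CPM.

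**Figure D4:**
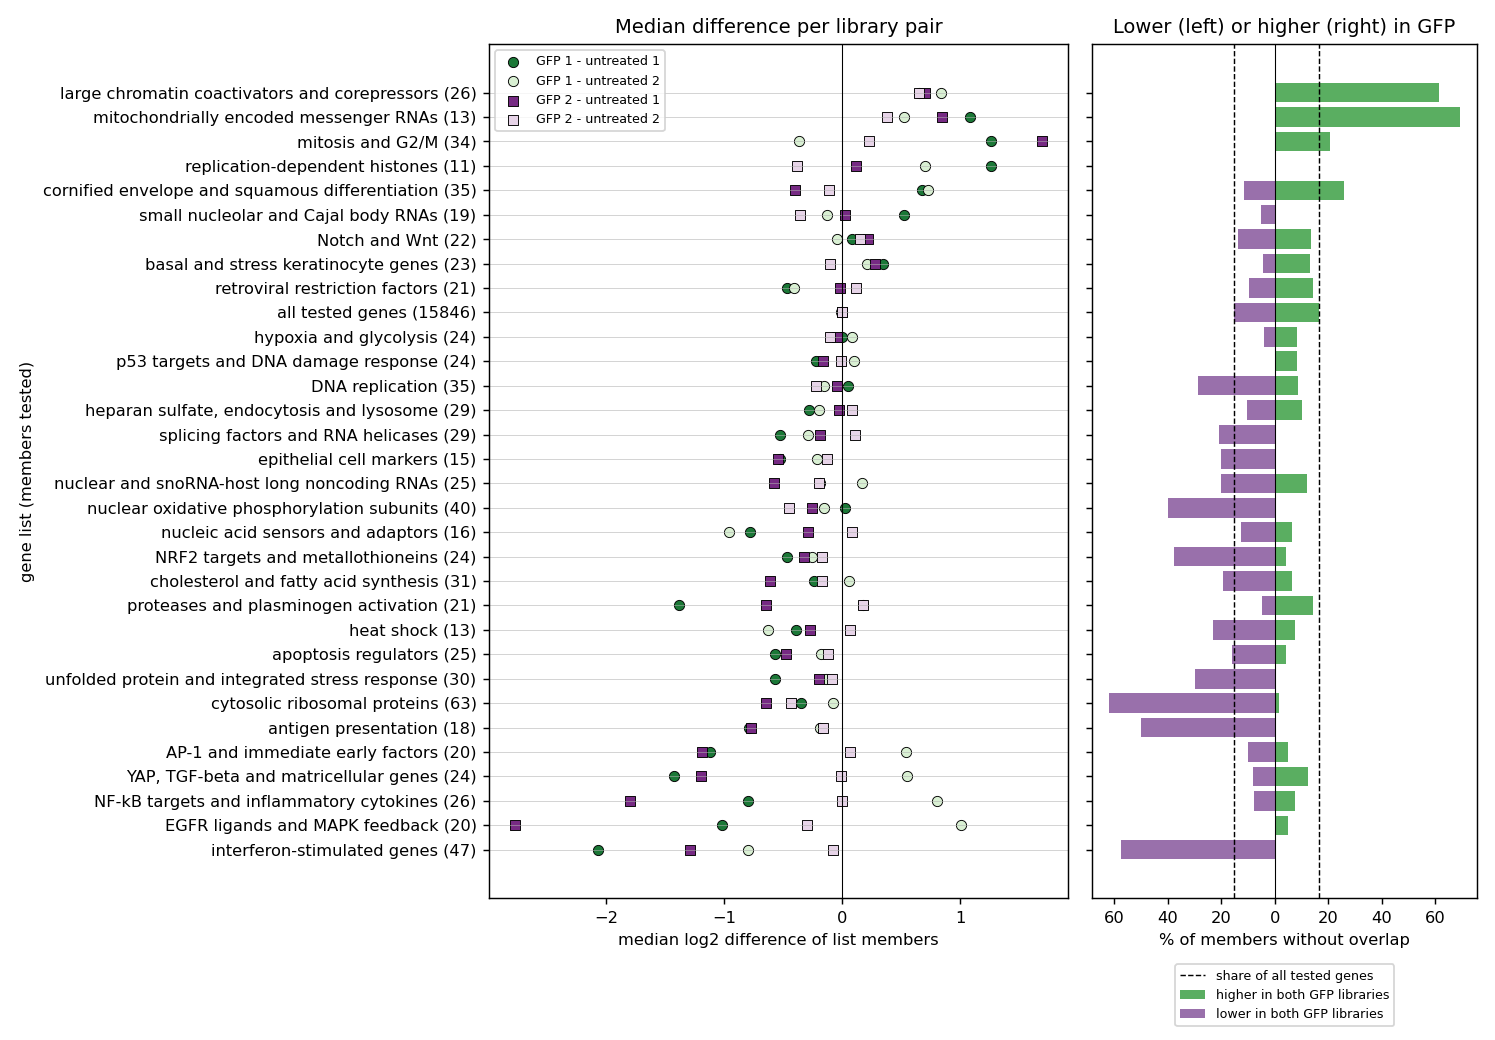
The left panel plots, for each gene list with at least 10 tested members, the median log2 difference of its members in each of the 4 GFP and untreated library pairs. The right panel plots the percentage of members without overlap, lower to the left and higher to the right, with dashed lines at 15.3% and 16.4% for all tested genes. The chromatin list has its 4 points close together between 0.65 and 0.84, while the signalling lists have points on both sides of 0.

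Epithelial markers were abundant in all 4 libraries and markers of other cell types were scarce. The summed level of 16 epithelial markers was 5429 and 6230 CPM in the GFP cells and 9503 and 7688 CPM in the untreated cells. For 11 fibroblast markers it was 6.77 and 9.82 CPM against 5.75 and 4.28 CPM, and for 14 immune cell markers 6.72 and 7.02 CPM against 6.67 and 7.93 CPM. Between 2 and 3 of the fibroblast markers and between 3 and 5 of the immune markers were at 0 in each of the 4 libraries. CD2, of T cells, was at 0 in all of them. The 9 endothelial markers with a row summed to 9.90 and 14.8 CPM against 53.8 and 14 CPM. CDH5, the cadherin of endothelial junctions, made up 49.8 CPM of the sum in untreated replicate 1, where KDR had 1 count and TEK and TIE1 had 0. VWF, the endothelial clotting factor, had 80 counts in untreated replicate 1 and 24 in untreated replicate 2, and 14 and 17 in the GFP libraries. CRNN had 59 and 32 counts in the GFP libraries and 92 and 52 in the untreated libraries, with a log2 fold change of 0.01 (SE 0.50; adjusted p = 0.999, edgeR).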

How the data were processed

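Total RNA of Cal27 cells was sequenced as stranded, paired reads. The deposited values are raw counts per versioned Ensembl gene, not normalized. Per the submitters' processing notes the tools named are STAR 2.6, HTSeq 0.6.1, FastQC 0.11.7, bcl2fastq and edgeR. The role of each genome build named there, the annotation and the strand setting are not given in the sources used here. Names, coordinates, length and GC content came from GENCODE release 44 by identifier without version (97.3% of tested genes had length and GC).

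Only the 2 GFP and 2 untreated libraries were fitted, with edgeR 4.0.16 in R 4.3.3: filterByExpr (minimum count 10, minimum total 15), TMM factors, and the two-sided quasi-likelihood F test, with Benjamini-Hochberg adjustment over the 15846 tested genes. A standard error (SE) is the log2 fold change divided by the square root of F. Gaps use log2 CPM with a prior count of 2. Trends with GC content and length were fitted and subtracted per library by splines of 4 degrees of freedom. CRNN libraries were placed on the same TMM scale. The procedure was tested on simulated data. The comparison, the gene lists and the rules were chosen with earlier results of these data known. Named are the 15 genes each way with the largest gap, the 5 smallest p-values, and up to 6 members of a list by p and 4 by gap, with CRNN, markers and up to 4 genes singled out for replicate differences. Alternatives were other scalings, filters and tools (DESeq2 1.42.0, limma 3.58.1), a replicate block, all 6 libraries, and each library left out. Some genes that these rules name are not reported here.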

Additional observations from a re-analysis of the deposited data

How the results depend on the processing

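The number of genes called was 0 under RLE, upper-quartile or library-total scaling, without mitochondrial genes or the 10 most abundant genes, with a 1 CPM filter, after the GC and length correction, in limma-voom and robust edgeR, and with all 6 libraries in 1 fit. edgeR called 307 genes without a filter on low counts (74 higher, 233 lower) and DESeq2 called 15 (8 higher, 7 lower). With 1 library left out the count ran from 0 to 664 (0 to 231 higher, 0 to 433 lower). It was 8 without untreated replicate 1 and 664 without untreated replicate 2, where the lone untreated library is assumed to vary like the GFP libraries. The cause was not tested. Genes without overlap were 4820 higher and 4663 lower without the filter, from 4408 to 6179 higher and from 4636 to 6044 lower with 1 library left out, 511 and 84 at a gap of 1.5-fold, and 147 and 19 at 2-fold. Fewer libraries and stricter gaps change these counts by construction.

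The replicate block called 124 genes (45 higher, 79 lower), and 0 with the GC and length correction. Differences between replicates 1 and 2 had a correlation of 0.20 between the groups, and the labels do not say that numbers pair the libraries.

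Of 1305 alternative values for 82 genes, 114 passed the threshold where the reported value did not, and 8 changed sign. Without untreated replicate 1 the log2 fold change was 1.16 for TNFAIP3, 0.40 for CXCL8, 0.28 for HLA-B and 0.07 for VWF. Over the libraries left out they ran from -4.60 to 1.16, -6.79 to 0.40, -1.80 to 0.28 and -1.58 to 0.07. For CRNN, at 0.01, the sign changed without a filter (-0.06), after the GC and length correction (-0.06), and with libraries left out (-0.32 to 0.42).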

Other observations

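Lipid synthesis, splicing and matrix proteolysis were also read across the same 4 libraries. Of 31 genes of cholesterol and fatty acid synthesis, 6 (19.4%) were lower in the GFP cells without overlap and 2 (6.45%) higher, beside 15.3% lower and 16.4% higher of all tested genes, with a median log2 fold change of -0.27, or -0.04 without untreated replicate 1. Of 29 splicing factors and RNA helicases, 6 (20.7%) were lower, beside the same 15.3%, and 0 higher, with a median of -0.20, or -0.04 without GFP replicate 1 and -0.06 without untreated replicate 1. SRSF7, a splicing factor rich in serine and arginine, was at 88.9 and 107 CPM against 295 and 133 CPM. Of 21 proteases and plasminogen activation genes, 3 (14.3%) were higher and 1 (4.76%) lower, below the shares of all tested genes. Their median of -0.30 was 0.34 without untreated replicate 1. SERPINE2, an inhibitor of thrombin and plasminogen activators, was higher at 6.30 and 5.59 CPM against 3.2 and 2.6 CPM, with 5.24 and 5.93 CPM in the CRNN libraries.

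Of 22 Notch and Wnt genes, 3 (13.6%) were higher and 3 lower. Of 29 genes of heparan sulfate, endocytosis and the lysosome, which virus entry uses, 3 (10.3%) were higher and 3 lower. The shares of both lists were below those of all tested genes, 16.4% higher and 15.3% lower. Apoptosis regulators had 4 of 25 lower, close to the 15.3% of all tested genes, and 1 higher, below the 16.4%. Their median was -0.35, or -0.12 without untreated replicate 1. No replication-dependent histone of 11 was free of overlap, and their median of 0.54 was -0.10 without GFP replicate 1. Small nucleolar and Cajal body RNAs had 1 of 19 (5.26%) lower and 0 higher, also below the shares of all tested genes.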
